A study of Mus musculus with 4 samples.

Results

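The genes described here are 40 listed genes of ribosome biogenesis and the nucleolus, out of 47069 genes in the deposited tables. They were chosen by name, with no measured value in the rule, and all 40 symbols were matched through their Ensembl identifiers. Earlier results of these data were known when the list was chosen. The list was kept in 5 role groups: 5 genes of box C/D particles, 4 genes of box H/ACA particles, 12 genes of the small-subunit processome and the 40S subunit, 15 genes of the 60S subunit, and 4 genes of abundant nucleolar proteins and RNA polymerase I.

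The RNA came from HT22 cells, an immortalised mouse hippocampal line labelled as strain C57BL/6, grown in Dulbecco's Modified Eagle's Medium. All cells, controls included, received an adenovirus 2 h after seeding. In the labelled-knockdown OGD library (KD-OGD) the virus was labelled as lowering the long noncoding RNA AK046375 and the cells then spent 6 h in oxygen-glucose deprivation (OGD), with glucose-free medium and oxygen replaced by nitrogen. The control OGD library (control-OGD) had a control virus and the same deprivation, the labelled-knockdown normal library (KD-normal) had the AK046375 virus in normal culture, and the control normal library (control-normal) had the control virus in normal culture. Single libraries are titled as knockdown, with an adenovirus, but the series text speaks of overexpression and a lentivirus, 0 identifiers matched AK046375, and its level was not analysed here, so each direction below belongs to the library labelled knockdown. There was 1 library in each group, so the differences reported here could not be checked against replicates and none was tested. Intervals in brackets are 95% intervals that cover counting error only. They compare pairs of libraries, not conditions.

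Ribosomes are built in the nucleolus, where RNA polymerase I copies the ribosomal DNA into a long precursor RNA. Box C/D particles place methyl groups on that RNA and box H/ACA particles turn uridines into pseudouridines, each guided by a small nucleolar RNA. The small-subunit processome folds and cuts the part that becomes the 40S subunit, a separate chain of factors matures the 60S subunit, and the MYC transcription factor is known to drive many of these genes through E-box sequences.

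Several of these genes carry guide RNAs in their own introns. In the GENCODE M21 annotation of GRCm38, 7 of the 40 genes (Nop58, Ncl, Nop56, Tsr1, Gnl3, Wdr43 and Dkc1) held 21 annotated small nucleolar RNAs of 68 to 133 nt on their own strand. None of the 21 had a count in any library, and 45 of all 1507 small nucleolar RNA genes had one. The 21 are shorter than the fragments of about 200 bp, so missing counts do not say whether these RNAs were present. The values below are those deposited for the host genes. The 3 sequences below, from the GENCODE transcripts, lie in hosts that were higher in both OGD libraries. Capitals mark the core letters of the C box, TGATGA, and the D box, CTGA.
Snord110, in Nop56, chr2:130275506-130275573, plus strand: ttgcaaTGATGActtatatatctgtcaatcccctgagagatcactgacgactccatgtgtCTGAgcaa
Snord82, in Ncl, chr1:86356261-86356330, minus strand: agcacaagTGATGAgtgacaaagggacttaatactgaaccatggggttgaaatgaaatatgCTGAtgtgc
Snord92, in Wdr43, chr17:71631281-71631365, plus strand: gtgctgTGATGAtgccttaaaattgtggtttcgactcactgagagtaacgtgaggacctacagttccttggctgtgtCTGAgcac

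Promoters were searched for the E-box CACGTG, a palindrome that reads the same on both strands. The windows were 300 bases of RefSeq sequence in GRCm38.p6, 250 before to 50 after the start. They were on hand for 32 of the 40 genes (not for Bop1, Fbl, Gnl2, Gnl3l, Nol6, Npm1, Rrp12 and Rrs1), and 7 of the 32 held the motif (21.9%), against 1058 of 8574 compared genes (12.3%) and 2349 of 32851 promoters in all (7.15%). The 7 stretches of 30 bases are shown because the genes are read against the motif further on, with the E-box in capitals.
Nop2, chr6:125131811-125131840, plus strand: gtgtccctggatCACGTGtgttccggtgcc
Utp20, chr10:88826765-88826794, minus strand: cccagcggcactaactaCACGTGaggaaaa
Pes1, chr11:3963965-3963994, plus strand: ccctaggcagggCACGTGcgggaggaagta
Mybbp1a, chr11:72441347-72441376, plus strand: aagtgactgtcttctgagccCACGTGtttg
Tsr1, chr11:74898092-74898121, plus strand: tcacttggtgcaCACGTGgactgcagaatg
Utp18, chr11:93885769-93885798, minus strand: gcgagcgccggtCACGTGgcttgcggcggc
Wdr43, chr17:71616220-71616249, plus strand: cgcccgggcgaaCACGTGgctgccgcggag
In Nop2 the motif began 60 bases and in Utp18 20 bases before the start, and in the other 5 it began between base 3 (Pes1) and base 41 (Mybbp1a) after it.

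The libraries held 23327743 counts in KD-OGD, 27539845 in control-OGD, 23340914 in KD-normal and 26002246 in control-normal. The count-weighted mean gene length also differed, at 2153 nt in KD-OGD, 1815 nt in control-OGD, 1545 nt in KD-normal and 1835 nt in control-normal. Of 11 neuronal markers, 4 reached 1 FPKM in any library (Eno2, Map2, Dlg4 and Tubb3) and 5 were at 0 in all 4, so the defining neuronal markers were largely absent. The neuronal sum was 38.1 FPKM in KD-OGD and 34.4 in control-OGD, against 89.4 in KD-normal and 148 in control-normal. All 4 fibroblast markers reached 1 FPKM (sums of 254 to 494), 1 of 5 microglial markers did (Csf1r), and 0 of 5 astrocyte, 0 of 5 oligodendrocyte and 0 of 4 endothelial markers did. The part of these differences in the results below was not tested.

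The 40 genes together took 0.682% of counts in KD-OGD [0.679 to 0.686] and 0.694% in control-OGD [0.691 to 0.697], against 0.291% in KD-normal [0.289 to 0.294] and 0.255% in control-normal [0.253 to 0.257]. Both OGD libraries lay above both normal libraries, with no overlap of the counting intervals. Levels are given in FPKM, reads scaled to gene length and library depth. The median of the 40 genes was 60.2 FPKM in KD-OGD and 68.0 FPKM in control-OGD, against 17.4 FPKM in KD-normal and 30.5 FPKM in control-normal. The median of all genes that passed the filter was 12.8, 9.01, 8.58 and 12.2 FPKM in the same order of libraries, so it did not separate the cultures as the 40 genes did. In bulk RNA, fewer cells of a kind and less RNA per cell cannot be told apart.

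**Figure D1:**
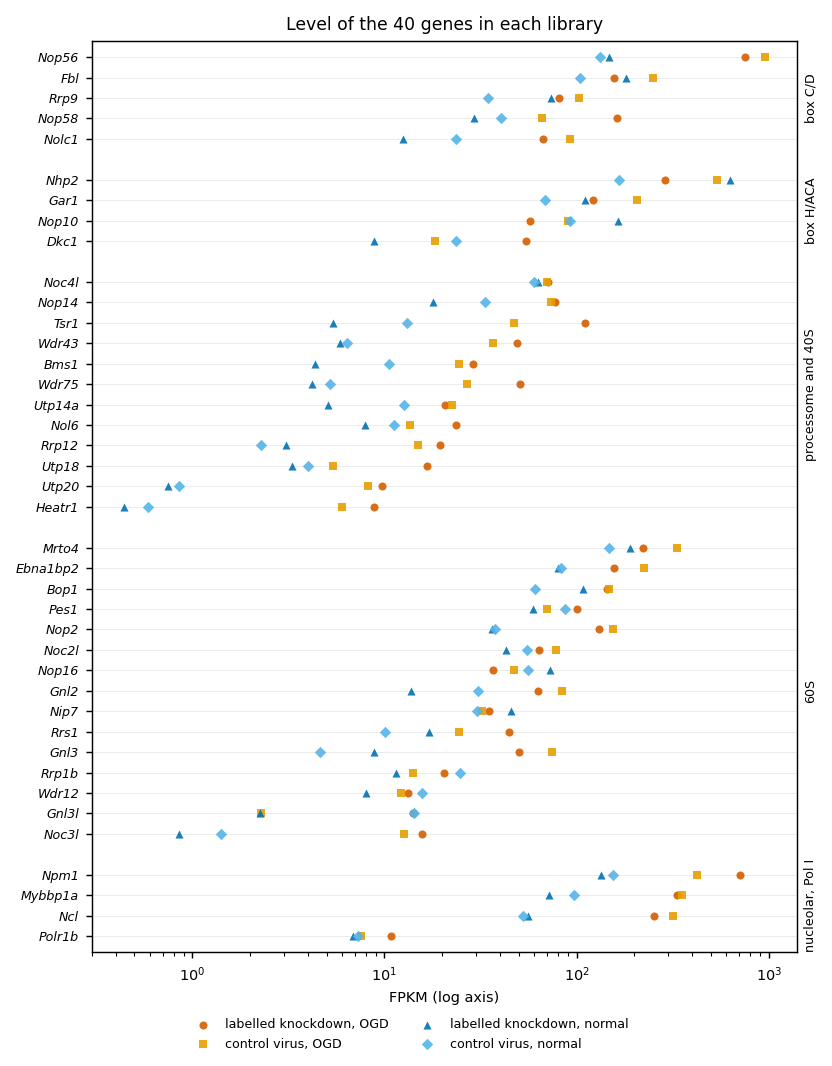
FPKM of each of the 40 genes in each of the 4 libraries on a log axis, by role group; each point is 1 library. Points spread from 0.44 FPKM (Heatr1 in KD-normal) to 956 FPKM (Nop56 in control-OGD). For most of the 40 genes both OGD points lie right of both normal points, an arrangement that was not counted over all compared genes.

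The first question was how the 40 genes differ between OGD and normal culture under each virus. With the knockdown-labelled virus, 24 of the 40 genes were 2-fold or more higher in OGD and 2 were lower (Nhp2 and Nop10), where 33.4% of the 12256 compared genes were higher and 20.9% lower. With the control virus, 25 were higher and 1 lower (Gnl3l), where 11.6% of compared genes were higher and 24.3% lower. The median log2 ratio of the 40 genes was 1.93 with the knockdown-labelled virus, beside 0.32 for all compared genes, and 1.25 with the control virus, beside -0.25. These 2 comparisons share no library.

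Higher in OGD under both viruses were 18 of the 40 genes (45.0%), where 1052 of all compared genes were (8.58%). They were Nop56 and Nolc1 of the box C/D group, Utp20, Wdr75, Wdr43, Heatr1, Bms1, Rrp12, Nop14 and Tsr1 of the processome and 40S group, and Noc3l, Gnl2, Gnl3, Nop2 and Rrs1 of the 60S group. Ncl, Npm1 and Mybbp1a of the nucleolar group completed them. No gene was lower under both viruses, and 8 stayed within 2-fold under both: Nip7, Noc2l, Noc4l, Nop16, Pes1, Polr1b, Rrp1b and Wdr12. Under every other scaling, filter and pseudocount in which the gene was compared, 22 of 26 calls held with the knockdown-labelled virus, as did all 26 with the control virus. The 4 that fell within 2-fold under at least 1 setting were Nhp2, Nop10, Nol6 and Rrs1.

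**Figure D2:**
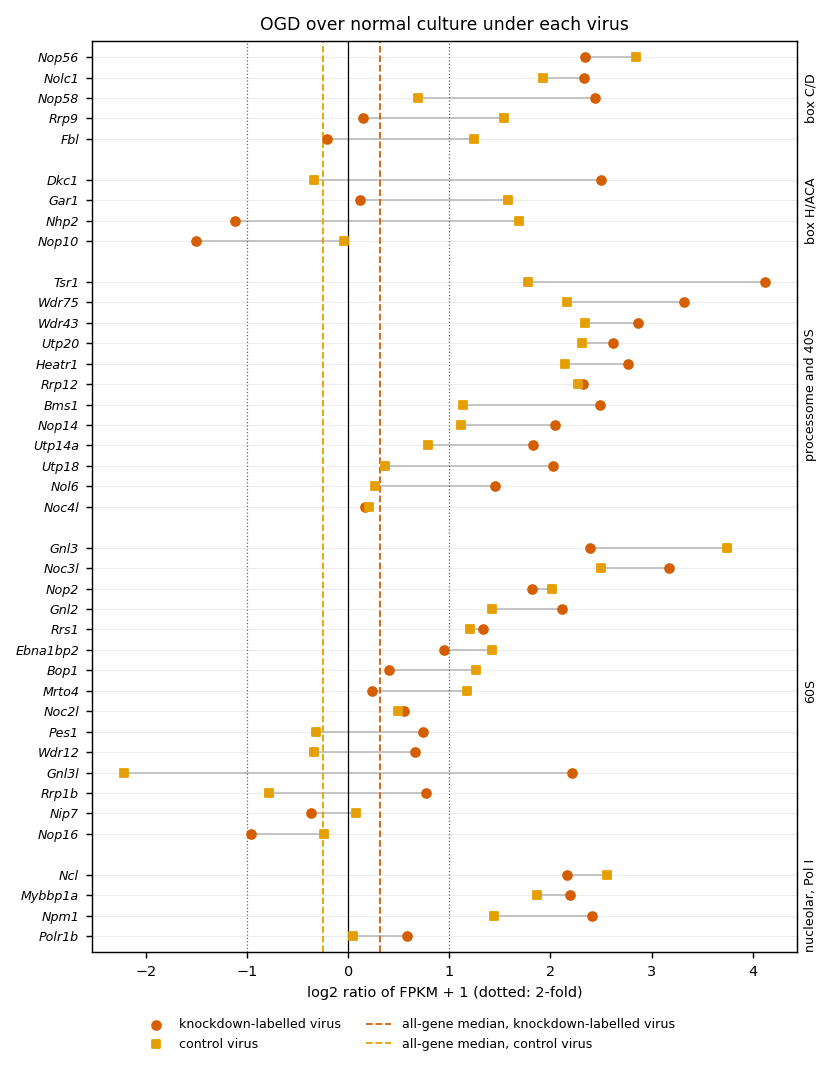
Log2 ratio of FPKM + 1, OGD over normal culture, for each of the 40 genes with the knockdown-labelled virus (circles) and the control virus (squares), by role group. Dashed lines are the medians of all compared genes (0.32 and -0.25), dotted lines mark 2-fold, and Gnl3l and Nhp2 have points on opposite sides of 0.

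Box C/D genes were mostly higher in OGD. Nop56, on chromosome 2 at 130274430 to 130279313 in GRCm38, encodes a scaffold of the box C/D particle and was the highest of the 40 in either OGD library. It had 752 FPKM in KD-OGD and 956 FPKM in control-OGD, against 148 FPKM in KD-normal and 132 FPKM in control-normal. It was 5.09-fold higher [4.89 to 5.30] in OGD with the knockdown-labelled virus and 7.25-fold higher [6.98 to 7.54] with the control virus, and the cultures did not overlap. Its scaffold partner Nop58 had 163 FPKM in KD-OGD and 66.3 FPKM in control-OGD, against 29.2 FPKM in KD-normal and 40.6 FPKM in control-normal. Nop58 was 5.58-fold higher [5.13 to 6.07] in OGD with the knockdown-labelled virus and, within 2-fold, 1.63-fold higher [1.52 to 1.75] with the control virus. The effective length deposited for Nop58 differed 1.65-fold between libraries and was longest in control-OGD. In counts scaled to library depth (CPM) Nop58 had 156 in KD-OGD and 104 in control-OGD, against 28.3 in KD-normal and 40.2 in control-normal. Its log2 ratio with the control virus ran from 0.58 to 1.53 over the other settings. Nolc1, a chaperone of small nucleolar particles, had 67.1 FPKM in KD-OGD and 92.8 FPKM in control-OGD, against 12.5 FPKM in KD-normal and 23.6 FPKM in control-normal. Both OGD libraries lay above both normal ones for Nop58 and Nolc1 as well.

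Fbl encodes fibrillarin, the methyltransferase of the box C/D particle. It had 156 FPKM in KD-OGD and 249 FPKM in control-OGD, against 180 FPKM in KD-normal and 105 FPKM in control-normal. In OGD Fbl was 1.16-fold lower [1.10 to 1.21] with the knockdown-labelled virus and 2.38-fold higher [2.28 to 2.49] with the control virus, so the cultures overlapped. A pseudogene 96.9% identical over 984 bases, Gm5812, held 1478 counts in KD-OGD and 2849 in control-OGD beside 3486 and 6569 for Fbl in those libraries, and reads of the pair may have been divided between them. The log2 ratio of their summed counts, scaled to library depth (CPM), was -0.21 in OGD over normal with the knockdown-labelled virus and 1.26 with the control virus, beside -0.20 and 1.25 for Fbl alone. A transcript of Tulp4 matched Fbl more closely over a shorter stretch, at 99.6% identity over 690 bases. The whole Tulp4 gene, which was not summed with Fbl, held 9425 counts in KD-OGD and 7003 in control-OGD, against 2537 in KD-normal and 2648 in control-normal. How reads of these genes were divided is not known here, so the level of Fbl is uncertain. Rrp9, a protein of the U3 particle, had 81.2 FPKM in KD-OGD and 103 FPKM in control-OGD, against 73.4 FPKM in KD-normal and 34.5 FPKM in control-normal. Its control-normal library stood lowest and the other 3 lay close together.

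Box H/ACA genes did not move as a set in OGD, with 1 higher and 2 lower of 4 with the knockdown-labelled virus and 2 higher and 0 lower with the control virus. Dkc1 (chromosome X, 75095854 to 75109777) encodes dyskerin, the pseudouridine synthase of the particle, and Nhp2, Nop10 and Gar1 encode its 3 partner proteins. Dkc1 had 54.8 FPKM in KD-OGD and 18.4 FPKM in control-OGD, against 8.86 FPKM in KD-normal and 23.6 FPKM in control-normal. It was 6.18-fold higher [5.38 to 7.12] in OGD with the knockdown-labelled virus and 1.28-fold lower [1.15 to 1.43] with the control virus. In FPKM the cultures thus overlapped. The effective length deposited for Dkc1 differed 1.68-fold between libraries and was longest in control-OGD. Its log2 ratio with the control virus was -0.34 in FPKM and 0.37 in CPM. In CPM Dkc1 had 53.2 in KD-OGD and 30.1 in control-OGD, against 10.4 in KD-normal and 23.3 in control-normal, without overlap of cultures.

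Nhp2 (chromosome 11, 51619735 to 51623714) had 289 FPKM in KD-OGD and 536 FPKM in control-OGD, against 628 FPKM in KD-normal and 166 FPKM in control-normal. The highest and the lowest library were both in normal culture. It was 2.17-fold lower [2.10 to 2.25] in OGD with the knockdown-labelled virus and 3.23-fold higher [3.11 to 3.36] with the control virus. The first of these calls fell within 2-fold under some settings, with log2 ratios of -1.67 to -0.38 over all of them. Nop10 had 57.6 FPKM in KD-OGD and 90.0 FPKM in control-OGD, against 165 FPKM in KD-normal and 92.9 FPKM in control-normal. In FPKM both OGD libraries were below both normal ones, control-OGD by a narrow margin, and KD-normal stood apart on the high side. With the control virus the log2 ratio of Nop10 changed sign with the setting, from -0.15 to 0.37. Gar1 had 121 FPKM in KD-OGD and 207 FPKM in control-OGD, against 111 FPKM in KD-normal and 68.4 FPKM in control-normal, so both OGD libraries were above both normal ones, the lower by a narrow margin.

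Ratios of FPKM between partners show the same split within each library. The Nhp2 to Dkc1 ratio was 5.28 [4.96 to 5.62] in KD-OGD and 29.1 [27.1 to 31.3] in control-OGD, against 70.9 [62.4 to 80.8] in KD-normal and 7.03 [6.45 to 7.68] in control-normal. The Nop10 to Dkc1 ratio was 1.05 [0.970 to 1.14] in KD-OGD and 4.89 [4.51 to 5.30] in control-OGD, against 18.6 [16.3 to 21.3] in KD-normal and 3.94 [3.6 to 4.31] in control-normal. The Gar1 to Dkc1 ratio was 2.21 [2.05 to 2.39] in KD-OGD and 11.2 [10.4 to 12.2] in control-OGD, against 12.6 [10.9 to 14.5] in KD-normal and 2.90 [2.61 to 3.22] in control-normal. All 3 ratios were highest in KD-normal and lowest in KD-OGD, where Dkc1, the longest message of the 4, was itself at its lowest and its highest. That order also held by counts, without length, but the ratios in control-OGD were smaller, at 13.4 for Nhp2, 2.71 for Nop10 and 2.82 for Gar1. By counts the Nop10 to Dkc1 ratio was lower in control-OGD than in control-normal, at 3.62, the reverse of FPKM. In the box C/D group the Nop56 to Nop58 ratio stood apart in control-OGD, at 14.4 [13.9 to 15.0], beside 4.62 [4.45 to 4.79] in KD-OGD, 5.06 [4.65 to 5.51] in KD-normal and 3.24 [3.02 to 3.48] in control-normal. By counts, without length, this ratio was nearer the other libraries, at 8.02 in control-OGD. It was 4.13 in KD-OGD, 4.45 in KD-normal and 2.82 in control-normal.

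**Figure D3:**
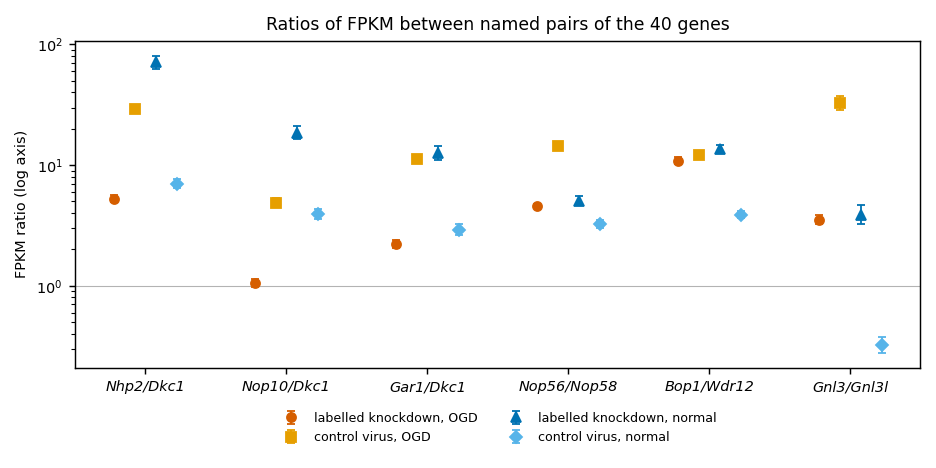
Ratio of FPKM between partner genes in each of the 4 libraries on a log axis; bars are 95% counting intervals. The Nhp2 to Dkc1 ratio spans 5.28 (KD-OGD) to 70.9 (KD-normal) and the Gnl3 to Gnl3l ratio spans 0.325 (control-normal) to 32.7 (control-OGD).

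Processome and 40S genes were higher in OGD. All 12 had positive log2 ratios under both viruses, where 57.1% of compared genes did with the knockdown-labelled virus and 40.3% with the control virus, and 11 were past 2-fold with the knockdown-labelled virus and 8 with the control virus, at medians of 2.41 and 1.46. Tsr1 (chromosome 11, 74898071 to 74909342), a late maturation factor of the 40S subunit, had 110.4 FPKM in KD-OGD and 47.4 FPKM in control-OGD, against 5.41 FPKM in KD-normal and 13.1 FPKM in control-normal. It was 20.4-fold higher [17.9 to 23.5] in OGD with the knockdown-labelled virus and 3.62-fold higher [3.31 to 3.97] with the control virus, with no overlap of cultures. Its effective length differed 1.26-fold between libraries, which leaves a ratio in CPM of 4.26 and 2.17 on the log2 scale.

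Heatr1 and Utp20, large scaffold proteins of the processome, and Wdr43 and Wdr75, of its early-binding part, were low in normal culture. Heatr1 (chromosome 13, 12395027 to 12440289) had 8.80 FPKM in KD-OGD and 6.01 FPKM in control-OGD, against 0.44 FPKM in KD-normal and 0.59 FPKM in control-normal. Those normal values rest on 65 counts in KD-normal and 98 in control-normal, and the log2 ratios in CPM were 4.32 with the knockdown-labelled virus and 3.34 with the control virus. Utp20 (chromosome 10, 88746607 to 88826804) had 9.72 FPKM in KD-OGD and 8.18 FPKM in control-OGD, against 0.75 FPKM in KD-normal and 0.85 FPKM in control-normal. Both genes lay near or under 1 FPKM in both normal libraries and well above it in both OGD libraries. Wdr75 had 51.0 FPKM in KD-OGD and 26.8 FPKM in control-OGD, against 4.20 FPKM in KD-normal and 5.22 FPKM in control-normal. Wdr43 (chromosome 17, 71615895 to 71659031) had 48.9 FPKM in KD-OGD and 36.6 FPKM in control-OGD, against 5.86 FPKM in KD-normal and 6.4 FPKM in control-normal. For these 4 genes the KD-normal and control-normal libraries were close, and KD-OGD was the highest library.

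Rrp12, which acts in export of pre-40S particles, was 6.31-fold higher [5.58 to 7.16] in OGD with the knockdown-labelled virus and 6.51-fold higher [5.69 to 7.47] with the control virus, the 2 folds overlapping within counting error. The processome GTPase gene Bms1 had 29.0 FPKM in KD-OGD and 24.4 FPKM in control-OGD, against 4.35 FPKM in KD-normal and 10.6 FPKM in control-normal. Nop14, a further processome protein, had 76.8 FPKM in KD-OGD and 73.7 FPKM in control-OGD, against 17.8 FPKM in KD-normal and 33.4 FPKM in control-normal. For both the OGD libraries were close and the normal libraries were not. Utp14a, Utp18 and Nol6, all processome proteins, were past 2-fold with the knockdown-labelled virus only, at 4.05-fold [3.53 to 4.67], 5.01-fold [4.27 to 5.91] and 2.96-fold [2.72 to 3.23]. With the control virus the same 3 genes were at 1.78-fold [1.63 to 1.95], 1.35-fold [1.15 to 1.59] and 1.22-fold [1.12 to 1.32], and whether the viruses differ was not tested. Noc4l, which pairs with Nop14, was flat, at 70.6 FPKM in KD-OGD and 69.8 FPKM in control-OGD, against 63.0 FPKM in KD-normal and 60.3 FPKM in control-normal.

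The 60S group was mixed. With the knockdown-labelled virus 6 of its 15 genes were past 2-fold higher in OGD and 0 lower, and with the control virus 8 were higher and 1 lower, at medians of 0.77 and 1.17. Gnl3 (chromosome 14, 31012433 to 31019152) encodes nucleostemin, a nucleolar GTPase. It had 50.1 FPKM in KD-OGD and 74.4 FPKM in control-OGD, against 8.78 FPKM in KD-normal and 4.63 FPKM in control-normal. Gnl3 was 5.71-fold higher [5.09 to 6.42] in OGD with the knockdown-labelled virus and 16.1-fold higher [13.9 to 18.6] with the control virus, and the cultures did not overlap.

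Its paralogue Gnl3l (chromosome X, 150983141 to 151017322) did the opposite with the control virus. Gnl3l had 14.2 FPKM in KD-OGD and 2.28 FPKM in control-OGD, against 2.26 FPKM in KD-normal and 14.3 FPKM in control-normal. The 2 high libraries were nearly equal and so were the 2 low ones, each pair crossing both virus and culture. In OGD it was 6.27-fold higher [5.39 to 7.32] with the knockdown-labelled virus and 6.26-fold lower [5.48 to 7.17] with the control virus. The Gnl3 to Gnl3l ratio was 3.54 [3.28 to 3.83] in KD-OGD and 32.7 [28.9 to 37.1] in control-OGD, against 3.89 [3.26 to 4.64] in KD-normal and 0.325 [0.279 to 0.378] in control-normal. The effective length of Gnl3l differed 1.46-fold between libraries, and in CPM its OGD log2 ratios were 2.23 with the knockdown-labelled virus and -2.20 with the control virus.

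Noc3l, whose yeast counterpart acts in 60S assembly (chromosome 19, 38788128 to 38819237), had 15.6 FPKM in KD-OGD and 12.6 FPKM in control-OGD, against 0.85 FPKM in KD-normal and 1.41 FPKM in control-normal. Nop2, which encodes an RNA cytosine methyltransferase acting on the large ribosomal RNA, had 131 FPKM in KD-OGD and 155 FPKM in control-OGD, against 36.4 FPKM in KD-normal and 37.7 FPKM in control-normal. Nop2 was 3.6-fold higher [3.41 to 3.80] with the knockdown-labelled virus and 4.12-fold higher [3.93 to 4.32] with the control virus. Gnl2, a further nucleolar GTPase gene, had 62.7 FPKM in KD-OGD and 83.6 FPKM in control-OGD, against 13.7 FPKM in KD-normal and 30.6 FPKM in control-normal. The OGD libraries lay above the normal ones for all 3 of these genes.

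Rrs1, needed in yeast to bring the 5S particle into the 60S precursor, had 44.4 FPKM in KD-OGD and 24.5 FPKM in control-OGD, against 17.1 FPKM in KD-normal and 10.1 FPKM in control-normal. Ebna1bp2, a 60S assembly factor, had 156 FPKM in KD-OGD and 225 FPKM in control-OGD, against 80.4 FPKM in KD-normal and 83.3 FPKM in control-normal. Mrto4, whose protein holds the place of the ribosomal stalk during assembly, had 222 FPKM in KD-OGD and 334 FPKM in control-OGD, against 189 FPKM in KD-normal and 148 FPKM in control-normal. Cultures did not overlap for these 3 genes either, although Ebna1bp2 and Mrto4 were within 2-fold with the knockdown-labelled virus.

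Pes1, Bop1 and Wdr12 encode the 3 subunits of the PeBoW complex, which acts on the 60S precursor, and did not move as 1 unit. Bop1 had 144 FPKM in KD-OGD and 147 FPKM in control-OGD, against 109 FPKM in KD-normal and 60.8 FPKM in control-normal. Pes1 had 99.9 FPKM in KD-OGD and 69.9 FPKM in control-OGD, against 59.4 FPKM in KD-normal and 87.5 FPKM in control-normal. Wdr12 had 13.2 FPKM in KD-OGD and 12.3 FPKM in control-OGD, against 8.0 FPKM in KD-normal and 15.7 FPKM in control-normal. Only Bop1 kept the cultures apart. The Bop1 to Pes1 ratio was 1.44 [1.39 to 1.49] in KD-OGD and 2.11 [2.03 to 2.19] in control-OGD, against 1.83 [1.75 to 1.92] in KD-normal and 0.695 [0.664 to 0.726] in control-normal, so the control-normal library stood apart. Wdr12 is read with care, since its effective length differed 1.61-fold between libraries.

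Nip7, Nop16, Noc2l and Rrp1b, other 60S assembly genes, were within 2-fold in OGD under both viruses. Nip7 had 35.0 FPKM in KD-OGD and 32.2 FPKM in control-OGD, against 45.4 FPKM in KD-normal and 30.4 FPKM in control-normal. Nop16 had 36.7 FPKM in KD-OGD and 47.3 FPKM in control-OGD, against 72.5 FPKM in KD-normal and 55.9 FPKM in control-normal. Nop16 was thus the 60S gene with both OGD libraries below both normal ones. Noc2l had 63.5 FPKM in KD-OGD and 78.4 FPKM in control-OGD, against 43.0 FPKM in KD-normal and 55.4 FPKM in control-normal, the opposite arrangement. Rrp1b was 1.77-fold higher [1.58 to 1.97] in OGD with the knockdown-labelled virus and 1.77-fold lower [1.61 to 1.94] with the control virus.

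Ncl, Npm1 and Mybbp1a, which encode the abundant nucleolar proteins nucleolin and nucleophosmin and a Myb-binding regulator of ribosomal RNA synthesis, were past 2-fold higher in OGD under both viruses. Npm1 (chromosome 11, 33152287 to 33163206) had 712 FPKM in KD-OGD and 422 FPKM in control-OGD, against 133 FPKM in KD-normal and 155 FPKM in control-normal. Npm1 was 5.34-fold higher [5.14 to 5.55] with the knockdown-labelled virus and 2.73-fold higher [2.63 to 2.83] with the control virus. Ncl (chromosome 1, 86344719 to 86359400) had 254 FPKM in KD-OGD and 317 FPKM in control-OGD, against 56.1 FPKM in KD-normal and 52.9 FPKM in control-normal. Ncl was 4.53-fold higher [4.36 to 4.71] with the knockdown-labelled virus and 5.99-fold higher [5.78 to 6.22] with the control virus, with an effective length that differed 1.5-fold between libraries. Mybbp1a had 331 FPKM in KD-OGD and 355 FPKM in control-OGD, against 71.6 FPKM in KD-normal and 96.6 FPKM in control-normal. Cultures did not overlap for any of the 3. Polr1b, the second largest subunit of RNA polymerase I, had 10.9 FPKM in KD-OGD and 7.58 FPKM in control-OGD, against 6.90 FPKM in KD-normal and 7.29 FPKM in control-normal.

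The second question was how the library labelled knockdown differs from its control within each culture. In OGD 5 of the 40 genes were 2-fold or more higher (Dkc1, Gnl3l, Nop58, Tsr1 and Utp18) and 0 lower, where 16.2% of compared genes were higher and 2.28% lower. In normal culture 2 were higher (Nhp2 and Rrp9) and 7 lower (Dkc1, Bms1, Tsr1, Utp14a, Gnl3l, Gnl2 and Rrp1b), where 4.67% of compared genes were higher and 13.9% lower. The medians of the 40 genes were 0.08 in OGD and -0.13 in normal culture, beside 0.26 and -0.27 for all compared genes. With counts scaled by TMM the splits became 2 higher and 1 lower in OGD, and 6 higher and 2 lower in normal culture. With that scaling 9.66% of compared genes were higher and 4.64% lower in OGD, and 7.95% and 7.69% in normal culture. Calls that held under every other setting were Gnl3l in both cultures and Nhp2 in normal culture, that is 1 of 5 in OGD and 2 of 9 in normal culture, and all 14 kept their sign. For Nop58 in OGD the log2 ratio ran from 0.32 to 1.58 over the other settings.

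Within 2-fold of their control in both cultures were 29 of the 40 genes (72.5%), where 68.3% of all compared genes were. The widest ratios of the 40 belonged to Gnl3l. Gnl3l was 6.22-fold higher [5.43 to 7.14] in KD-OGD than in control-OGD, and 6.32-fold lower [5.44 to 7.36] in KD-normal than in control-normal. Dkc1 was 2.98-fold higher [2.72 to 3.25] in OGD and 2.66-fold lower [2.29 to 3.10] in normal culture, with log2 ratios in CPM of 0.82 and -1.16. Tsr1 was 2.33-fold higher [2.22 to 2.44] in OGD and 2.42-fold lower [2.07 to 2.84] in normal culture, with log2 ratios in CPM of 0.88 and -1.21. These 3 genes (7.5% of the 40) were past 2-fold on opposite sides in the 2 cultures, as were 5.06% of all compared genes. Whether the cultures differ was not tested.

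Nhp2 went the other way, at 1.85-fold lower [1.79 to 1.92] in KD-OGD than in control-OGD and 3.79-fold higher [3.64 to 3.94] in KD-normal than in control-normal. Nop10 and Gar1 had the same pair of signs within 2-fold, Nop10 at log2 ratios of -0.64 in OGD and 0.82 in normal culture by CPM, and Gar1 at -0.57 and 0.58. Across the 40 genes 18 (45.0%) were positive in OGD and negative in normal culture, where 51.4% of all compared genes were. The reverse held for 11 (27.5%), where it did for 22.4% of all compared genes. Of the 12 processome genes, 11 were positive in OGD (median 0.38) and 10 negative in normal culture (median -0.24), where 63.7% of compared genes were positive in OGD (median 0.26) and 64.9% negative in normal culture (median -0.27). With the length trend removed, 5 of the 12 were positive in OGD and 4 negative in normal culture. That removal sets the median of all compared genes to 0. Box C/D genes had medians of -0.35 in OGD and 0.16 in normal culture.

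**Figure D4:**
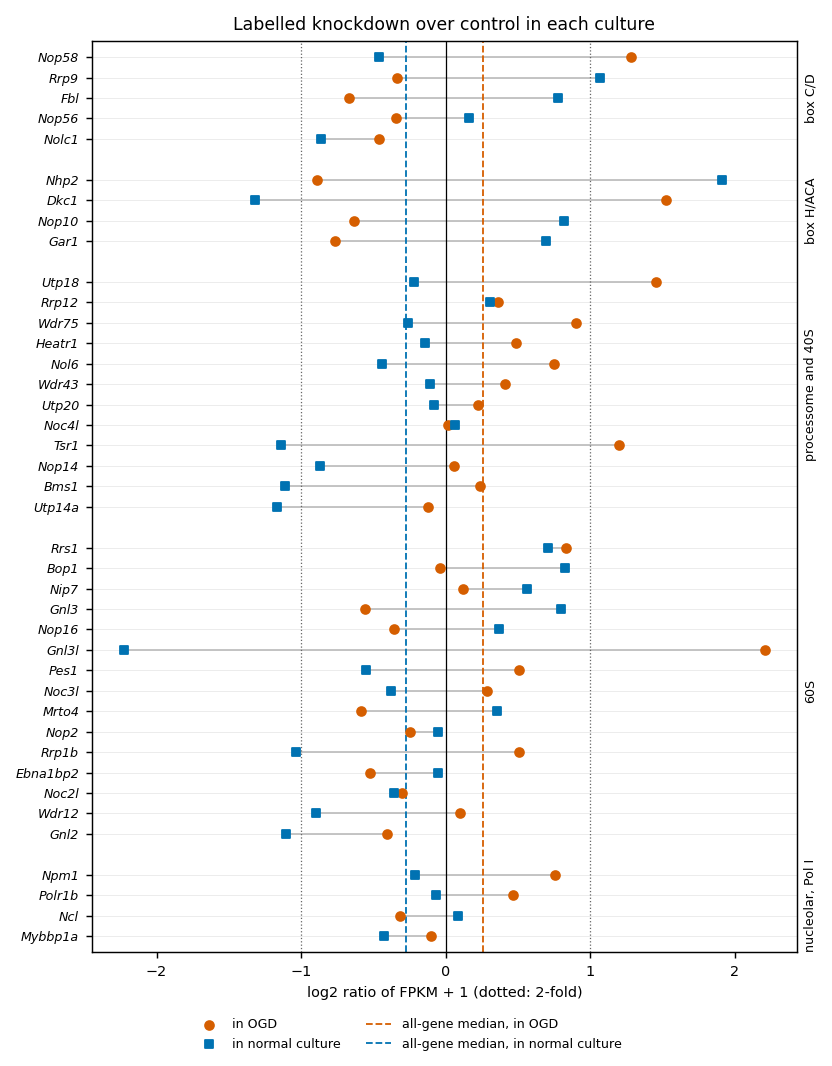
Log2 ratio of FPKM + 1, labelled knockdown over control, for each of the 40 genes in OGD (circles) and in normal culture (squares), by role group. Dashed lines are the medians of all compared genes (0.26 in OGD and -0.27 in normal culture), dotted lines mark 2-fold, and Gnl3l reaches 2.21 in OGD and -2.23 in normal culture.

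The authors' deposited table for normal culture lists 1342 genes at their p-value of 0.05 or lower, 4 of them with an adjusted p-value under 0.05. It holds 3 of the 40 genes: Nhp2 at a log2 fold change of 2.17 (adjusted p-value 0.499), Rrp9 at 1.33 (0.747) and Gnl3l at -2.07 (0.552). The authors' deposited table for OGD lists 219 genes and 0 of the 40.

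Gene length moved with the virus comparisons. The 20 longest of the 40 genes (2180 to 8831 nt) were set beside the 5481 compared genes longer than 2134 nt. The 20 shortest (658 to 2089 nt) were set beside the other 6775, which include genes shorter than any of the 40. In OGD the 20 longest had a median log2 ratio of 0.23 for labelled knockdown over control, beside 0.62, and the 20 shortest had -0.34, beside -0.08. In normal culture the 20 longest had -0.29, beside -0.52, and the 20 shortest 0.11, beside 0.00. For OGD over normal with the knockdown-labelled virus the 20 longest had 2.09, beside 1.03, and the 20 shortest 1.14, beside -0.34. With the control virus both sets were alike, at 1.2 for the longest, beside -0.27, and 1.33 for the shortest, beside -0.23. In OGD over normal culture the medians of both sets were above those of the compared genes on the same side of 2134 nt under both viruses. For labelled knockdown over control they were below them in OGD and above them in normal culture. With the length trend removed, 24 genes were higher and 1 lower in OGD with the knockdown-labelled virus, and 27 higher and 1 lower with the control virus. At this setting 21.6% of compared genes were higher and 20.7% lower with the knockdown-labelled virus, and 17.0% and 16.9% with the control virus.

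**Figure D5:**
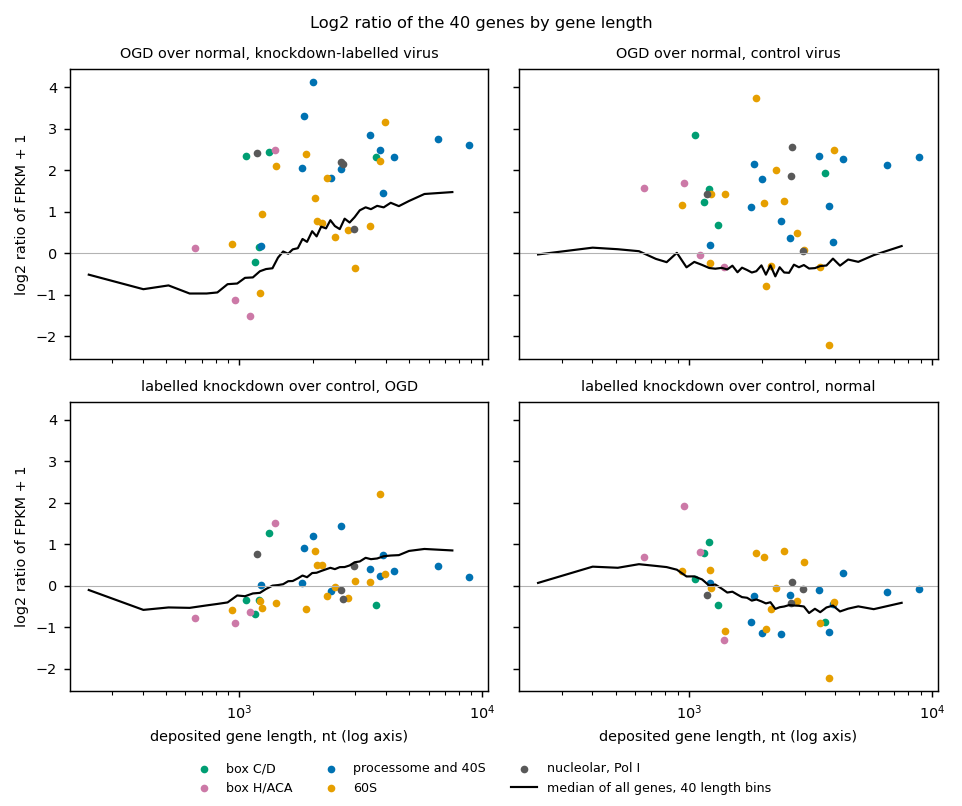
Log2 ratio of FPKM + 1 of each of the 40 genes (points, coloured by role group) against deposited gene length on a log axis, in the 4 comparisons; the line is the median of all compared genes in 40 length bins. In the 2 panels of OGD over normal culture most points lie above the line. For labelled knockdown over control most lie below it in OGD, and in normal culture they lie on both sides. With the length trend removed, 12 of the 40 were above the median of all compared genes in OGD and 25 in normal culture.

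Genes with an E-box in the promoter window were read beside those without, as a description. The 7 with the motif had a median OGD log2 ratio of 2.19 with the knockdown-labelled virus and 1.87 with the control virus, and the 25 without had 0.95 and 1.14. With the knockdown-labelled virus 6 of the 7 and 12 of the 25 were past 2-fold higher, where 33.4% of compared genes were. With the control virus 5 of the 7 and 14 of the 25 were, where 11.6% of compared genes were. Pes1, whose E-box begins at base 3, stayed within 2-fold under both. Length and role group were not held equal. Of the 7, all but Tsr1 are among the 20 longest listed genes. Those 20 had a median of 2.09 with the knockdown-labelled virus and 1.2 with the control virus, beside 1.14 and 1.33 for the 20 shortest. Utp20, Tsr1, Utp18 and Wdr43 belong to the processome group, which had medians of 2.41 and 1.46 in the same order. The part of the motif in these medians was not tested.

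Of 111 other genes of the pathway that were matched, 110 passed the filter. In OGD 56 were higher and 7 lower with the knockdown-labelled virus (median 1.02), and 41 higher and 4 lower with the control virus (median 0.62). Both medians were lower than those of the 40 genes. As both lists were chosen with earlier results of these data known, this difference is a description only. For labelled knockdown over control in OGD the counts were 5 higher and 1 lower, where 16.2% of compared genes were higher and 2.28% lower. In normal culture they were 4 higher and 14 lower, where 4.67% were higher and 13.9% lower. All counts of OGD over normal culture, here and below, are read against the shares given before. These were 33.4% higher and 20.9% lower with the knockdown-labelled virus and 11.6% higher and 24.3% lower with the control virus. Other 60S factors had 20 higher and 2 lower of 30 with the knockdown-labelled virus and 17 higher and 1 lower with the control virus. Mdn1, the large ATPase that remodels 60S precursors, had 12.7 FPKM in KD-OGD and 8.54 FPKM in control-OGD, against 0.91 FPKM in KD-normal and 0.35 FPKM in control-normal. Other processome and 40S factors had 20 higher and 3 lower of 34 with the knockdown-labelled virus and 13 higher and 2 lower with the control virus. Mphosph10, a protein of the U3 particle, had 19.8 FPKM in KD-OGD and 22 FPKM in control-OGD, against 3.88 FPKM in KD-normal and 2.31 FPKM in control-normal.

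Other RNA polymerase I genes had 7 higher and 0 lower of 14 with the knockdown-labelled virus and 5 higher and 1 lower with the control virus. Polr1a, the largest subunit, had 30.6 FPKM in KD-OGD and 15.9 FPKM in control-OGD, against 5.01 FPKM in KD-normal and 10.9 FPKM in control-normal. Nuclease genes had 8 higher and 2 lower of 24 with the knockdown-labelled virus and 5 higher and 0 lower with the control virus, and their higher count with the knockdown-labelled virus was at the share of all compared genes. Exosc10, a nuclease of the exosome, had 90.8 FPKM in KD-OGD and 95.5 FPKM in control-OGD, against 16.7 FPKM in KD-normal and 61.0 FPKM in control-normal, so KD-normal stood apart. Assembly factors of small nucleolar particles stayed closest to normal culture, with 3 and 2 higher of 11 with the knockdown-labelled and the control virus, 0 lower, and medians of -0.09 and -0.19.

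In the MYC network, 3 of 10 compared genes were higher and 1 lower in OGD with the knockdown-labelled virus, and 2 were higher and 5 lower with the control virus. The higher count with the knockdown-labelled virus was not above the share of all compared genes, 33.4%. Max, the partner through which MYC binds E-boxes, had 43.8 FPKM in KD-OGD and 44.5 FPKM in control-OGD, against 11.3 FPKM in KD-normal and 10.3 FPKM in control-normal. Mxd3, a competitor of MYC for that partner, had 6.89 FPKM in KD-OGD and 10.2 FPKM in control-OGD, against 85.6 FPKM in KD-normal and 47.3 FPKM in control-normal. Mxd1, in the same network, went the other way from Mxd3. It had 7.58 FPKM in KD-OGD and 3.7 FPKM in control-OGD, against 0.93 FPKM in KD-normal and 2.86 FPKM in control-normal. Whether MYC has a part in the levels of the listed genes was not tested. Myc, named after its values were seen, had 238 FPKM in KD-OGD and 230 FPKM in control-OGD, against 60.5 FPKM in KD-normal and 81.0 FPKM in control-normal.

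Some counts may include reads of other genes. An annotated gene on the opposite strand overlapped 18 of the 40 genes, and the sources used here do not say whether the counting used the strand. For Heatr1, Tsr1, Rrp9, Nop56, Bop1 and Dkc1 the opposite gene had more counts than the listed gene in at least 1 library. Lgals8, opposite Heatr1, held 746 counts in KD-OGD and 629 in control-OGD, against 227 in KD-normal and 573 in control-normal, beside 1300, 1048, 65 and 98 for Heatr1. Srr, opposite Tsr1, held 1029 counts in KD-OGD and 996 in control-OGD, against 235 in KD-normal and 413 in control-normal, beside 4276, 2742, 224 and 577 for Tsr1. Parp3, opposite Rrp9, held 2332 counts in KD-OGD and 2085 in control-OGD, against 760 in KD-normal and 1130 in control-normal, beside 1834, 2815, 1752 and 933 for Rrp9. Idh3b, opposite Nop56, held 4114 counts in KD-OGD and 4668 in control-OGD, against 2232 in KD-normal and 5224 in control-normal, beside 15010, 23057, 2941 and 2951 for Nop56. Mpp1, opposite Dkc1, held 835 counts in KD-OGD and 570 in control-OGD, against 715 in KD-normal and 2439 in control-normal, beside 1242, 829, 243 and 607 for Dkc1. Rmnd5b, opposite Nhp2, held 694 counts in KD-OGD and 853 in control-OGD, against 817 in KD-normal and 1077 in control-normal, beside 5135, 11073, 11101 and 3309 for Nhp2. Effective lengths differed over 1.2-fold between libraries for 10 of the 40 genes (25.0%), where 26.8% of all compared genes did.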

How the data were processed

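Total RNA of HT22 cells was sequenced in 4 libraries, 1 per group. Per the labels, RNA was cut to about 200 bp, a cDNA strand was marked with dUTP and 12 PCR cycles were run. TopHat2 and the build mm10 are named in the submitters' processing notes. The sources used here do not name the counter, the annotation release or the use of strand. The authors deposited, per the file headers, an expected count, an effective length and an FPKM per gene and library. All expected counts were whole numbers. Comparison tables deposited by the authors give a log2 fold change and p-values, and 4 per-library columns in them were not used.

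Ratios were log2(FPKM + 1), so folds of genes near 1 FPKM are understated on this scale. The filter kept the 12256 genes whose mean over the libraries was 1 FPKM or more, and all 40 listed genes passed. A call is 2-fold or more. FPKM folds carry exact conditional binomial 95% intervals from counts and effective lengths, and shares carry exact Clopper-Pearson ones. Reads amplified without molecular identifiers are not independent molecules. A count of 3 at 1 kb equals 0.129 FPKM in KD-OGD, 0.109 in control-OGD, 0.129 in KD-normal and 0.115 in control-normal. With 1 library per group nothing was tested between conditions. Intervals were tested on simulated data.

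Members and lists were chosen with earlier results of these data known. All 40 were named, and of each other list up to 2 genes with the largest log2 ratio in size per comparison among those at 5 FPKM or more. TMM factors came from edgeR 4.0.16. Other steps used Python 3.11.15, pandas 2.3.3 and scipy 1.17.1. Genes were placed with GENCODE M21 on GRCm38.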

Additional observations from a re-analysis of the deposited data

Results flagged for a closer look

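The listed genes whose ratio under one contrast was past 2-fold in opposite directions in the 2 groups are given here with the difference of their log2 ratios. With 1 library per group no difference was tested. For labelled knockdown over control, OGD minus normal culture, the difference was 4.44 for Gnl3l, 2.84 for Dkc1 and 2.34 for Tsr1. These were 3 of the 40 genes (7.5%), where 620 of all compared genes were opposite in this way (5.06%). For OGD over normal culture, knockdown-labelled minus control virus, the difference was 4.44 for Gnl3l, which is the same 4 values in another order, and -2.8 for Nhp2. These were 2 of the 40 (5.0%), where 2.37% of all compared genes were.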

How the results depend on the processing

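Settings tried were a pseudocount of 0.1, no filter, a mean of at least 5 FPKM, FPKM rescaled to equal sums, median-of-ratios and upper-quartile scaling, CPM without and with TMM, and removal of the length trend. Counts of listed genes higher in OGD ran from 22 to 30 with the knockdown-labelled virus and from 23 to 27 with the control virus. The share of compared genes higher in OGD ran from 18.6% to 43.6% and from 6.60% to 19.2%. Genes lower in OGD with the knockdown-labelled virus numbered 2, with 0 for equal sums, 1 for removal of the length trend, and 3 for TMM, median-of-ratios and upper quartile. The share of compared genes lower there ran from 11.3% to 31.0%. The virus comparisons depended on scaling. For OGD, higher counts of 5 became 9 with equal sums, 2 with TMM and with CPM, and 3 with length removal, median-of-ratios and upper quartile. The share of compared genes was then 25.3% with equal sums, 9.66% with TMM and 15.2% with CPM. It was 7.54% with length removal, 8.76% with median-of-ratios and 6.83% with upper quartile. Lower counts of 0 became 1 with TMM and length removal, 3 with median-of-ratios and 7 with upper quartile. Of compared genes 4.64% were lower with TMM, 1.79% with length removal, 8.07% with median-of-ratios and 11.3% with upper quartile. The median of 0.08 became 0.37 with equal sums, -0.22 with TMM, -0.33 with length removal, -0.26 with median-of-ratios and -0.38 with upper quartile. For normal culture, higher counts of 2 became 1 with equal sums, 6 with TMM, length removal and median-of-ratios, and 9 with upper quartile. The share of compared genes was then 1.47% with equal sums, 7.95% with TMM and 4.03% with length removal. It was 9.88% with median-of-ratios and 13.7% with upper quartile. Lower counts of 7 became 10 with equal sums, 5 with CPM, 2 with TMM, length removal and median-of-ratios and 1 with upper quartile, and the median of -0.13 became -0.38 with equal sums, 0.080 with TMM, 0.11 with length removal, 0.072 with median-of-ratios and 0.22 with upper quartile. The median difference of the 2 virus ratios, 0.36, became 0.96 with equal sums, -0.084 with TMM, -0.57 with length removal, -0.19 with median-of-ratios and -0.46 with upper quartile. Nol6 turned in that difference, to -0.14 with length removal. The cause was not tested. The median of all compared genes moved too, from 0.32 to 0.75 with equal sums and to 0.01 with TMM for OGD with the knockdown-labelled virus. Relative to it, the 40 genes stayed higher in OGD, by 1.14 to 1.89 with the knockdown-labelled virus and by 1.25 to 1.62 with the control virus. Relative to it, the virus medians lay between -0.33 and 0.04 in OGD and between -0.12 and 0.15 in normal culture. No paired analysis was possible because each group held 1 library. Depth limits mainly Heatr1, Noc3l and Utp20 in normal culture, at 65 to 191 counts.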
